A study of Mus musculus with 18 samples.

Results

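Deubiquitinating enzymes cut ubiquitin off proteins and so oppose the ubiquitin ligases. The ubiquitin-specific proteases (Usp) form the largest group of these enzymes and the ovarian tumor proteases (Otu) form another, and both use a cysteine in the active site. In the male germ line, ubiquitin marks histones that are later replaced by transition proteins and protamines, and it marks proteins and organelles that are broken down while the spermatid takes its final shape. The genes described here were chosen by symbol alone, as every gene whose symbol begins with Usp followed by a number, with Usp17l, with Otub or with Otud, pseudogenes left out. The rule found 68 of the 54232 genes in the count table, 58 with a Usp symbol and 10 with an Otu symbol. Of these, 65 are proteases by name and 3 are not: Usp6nl encodes a GTPase-activating protein, and Usp46os1 and Usp46os2 are noncoding RNAs on the strand opposite to Usp46.

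RNA was measured in round spermatids (RS), the haploid germ cells that have left meiosis and have not yet elongated. RS were purified from testes of mice of 75 to 85 days of age by sedimentation through an albumin gradient, after a collagenase step meant to remove Leydig cells. WT mice have an intact Ddx25, the gene of the RNA helicase GRTH. KO mice lack GRTH, and KI mice carry a human GRTH gene with a missense mutation that leaves them without the phosphorylated form of the protein. Total RNA was sequenced without polyA selection, 6 libraries for each genotype, 18 together. The labels do not say whether each library came from a separate mouse, so the tests measure the spread between libraries, part of which may be technical. The comparisons asked how the RNA of each protease in RS differed when GRTH was absent or not phosphorylated.

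Between 18766971 and 26776555 fragments were assigned to genes per library. Normalized CPM, the unit of all levels given here, are counts scaled to library size with edgeR's TMM factors. Ddx25 stood between 538 and 607 CPM in WT, between 47.7 and 90.9 CPM in KO and between 0.0456 and 0.519 CPM in 5 KI libraries, while the library labelled KI 4 had 56.9 CPM, within the KO range. That library and KO 2 were also the closest pair of all, with a pair index (the squared deviation between libraries over that of counting alone, as a median over genes) of 1.59, and 6 pairs of the same genotype had indices between 2.12 and 3.02. Calls that were lost with the close libraries of a genotype summed are named as such. Markers of RS were present in every genotype, with summed levels of 1519 to 2126 CPM in WT, 1040 to 1991 CPM in KO and 1083 to 1574 CPM in KI. Of their 10 genes, 3 were called lower in KO and 5 in KI and 0 higher, with median log2 fold changes of -0.17 and -0.48. All 10 markers of late spermatids were lower in KO and in KI past 1 log2 unit. The authors state that RS already transcribe and store mRNA of Prm2 and Tnp2, which are on this list. The list is thus not specific to cells past the RS stage. All 7 Leydig cell markers were higher in both genotypes. The summed levels of these lists are given beside members that changed in the same direction.

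The active site is the feature that the symbol rule did not use. A search of the translated coding sequences for the Cys box (glycine, any pair of residues, asparagine, any residue, glycine, then asparagine, serine or aspartate, then threonine or serine, then the cysteine) found it in 41 of the 56 coding Usp members, and the corresponding Otu pattern (aspartate, glycine, any residue, cysteine, any residue, phenylalanine or tyrosine, lysine or arginine) in 7 of the 10 Otu members. A member without a match only lacks these letters. The cysteine codon was tgc in 32 members and tgt in 16. The stretches of 45 coding bases around that codon are shown for the 7 members with the most stable changes that hold a box, first the 3 that fell in KO and KI and then the 4 that rose. They are from GENCODE M21 on GRCm38, written in the direction of the transcript, and the capitals mark the cysteine codon. Otub2 lies at chr12:103400976-103401020 (+), Usp12 at chr5:146763382-146768948 (-) across an intron, Usp44 at chr10:93846506-93846550 (+), Otud6a at chrX:100429445-100429489 (+), Usp51 at chrX:153008372-153008416 (+), Usp11 at chrX:20713349-20713393 (+) and Usp45 at chr4:21796881-21796925 (+).
Otub2: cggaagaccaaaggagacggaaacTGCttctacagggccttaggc
Usp12: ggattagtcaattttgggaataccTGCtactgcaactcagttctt
Usp44: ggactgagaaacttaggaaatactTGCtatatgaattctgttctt
Otud6a: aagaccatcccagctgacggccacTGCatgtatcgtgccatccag
Usp51: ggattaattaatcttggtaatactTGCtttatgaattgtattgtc
Usp11: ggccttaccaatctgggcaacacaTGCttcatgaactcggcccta
Usp45: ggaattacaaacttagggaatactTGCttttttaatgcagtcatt

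In WT RS, 61 of the 68 members passed the filter on low counts, 58 of them proteases. Counts were ample for most of them, with a WT mean over 100 CPM for 22 and under 10 CPM for 12. Per kilobase of counted length, the highest level was that of Usp1, which removes ubiquitin from DNA repair proteins, at 166 ± 11.7 CPM per kb (mean ± SD, n = 6). Usp2, known for its high level in testis, followed at 101 ± 6.83 CPM per kb, and Otub2 stood at 96.1 ± 10.2 CPM per kb, so Usp2 and Otub2 lay within the spread of each other and Usp1 above both. Usp8, which sorts receptors on endosomes and has been linked to the forming acrosome, had 77.3 ± 27.7 CPM per kb, and Usp44, which removes ubiquitin from histone H2B, had 71.3 ± 8.92 CPM per kb, which is also within the spread between libraries. Usp7, which stabilizes the p53 ligase MDM2, came next at 58.4 ± 8.76 CPM per kb. At the low end stood Usp27x and Usp29, both with a coding transcript of 1 exon, at 0.0941 ± 0.0262 and 0.0717 ± 0.0104 CPM per kb.

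**Figure D1:**
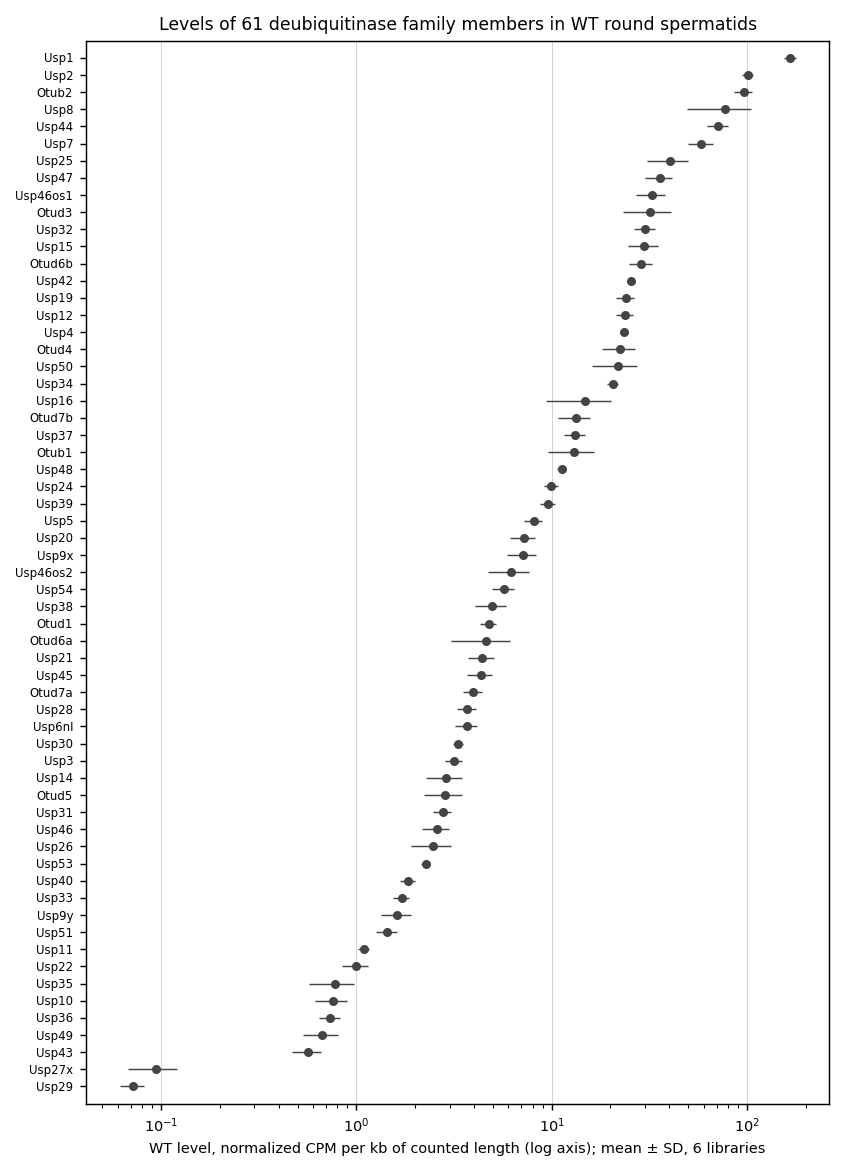
Level of the 61 tested members in WT round spermatids, in normalized CPM per kb of counted length on a log axis, as mean ± SD of 6 libraries. Levels run from 0.0717 for Usp29 to 166 for Usp1, and Usp1, Usp2, Otub2, Usp8 and Usp44 stand at the top.

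The 7 members that were not tested had at most 7 counts in any library. These were Usp13, Usp18, which removes the ubiquitin-like ISG15 in the interferon response, and the 5 Usp17l genes, of which Usp17ld had 0 counts in all 18 libraries. The Usp17l genes are near-identical copies on chromosome 7, and reads that match several of them cannot be told apart, so their levels are uncertain.

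In KO, 11 of the 61 tested members rose and 5 fell against WT (edgeR's quasi-likelihood test, Benjamini-Hochberg adjusted p under 0.1 over 21058 genes). Of all genes tested, 16.4% rose and 13.5% fell in this comparison, so the members' shares, 18.03% and 8.20%, were near the background. The median log2 fold change was 0.17 over the members and 0.03 over all genes. In KI, 18 members rose and 8 fell, against 16.1% and 15.4% of all genes, with a median of 0.16 over the members and 0.05 over all genes. Here the members' share was 29.5% for rises, above that of all genes, and 13.1% for falls, near it. With the close libraries of each genotype summed, 6 of 61 members rose and 4 fell in KO, beside 8.11% and 7.74% of all genes, and 5 rose and 4 fell in KI, beside 7.02% and 7.73%. The KO and KI comparisons use the same WT libraries. Their values are therefore given side by side, with no count of agreement read as a result.

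Against a change of 1 log2 unit (edgeR's glmTreat), 1 member rose in KO and 1 in KI, Otud6a in both, where 0.598% and 0.522% of all genes did so. At the same limit 0 members fell, and 1.13% of all genes fell past it in KO and 1.43% in KI, while 5 members fell in KO and 8 in KI by any amount. With close libraries summed, Otud6a was past 1 log2 unit in KO and 0 members were past it in KI. The calls of 9 members held in both genotypes when each of the 18 libraries was left out in turn and under all 8 other settings of the fit. These were Otub2, Usp12, Usp44 and Usp46os1, which fell, and Otud6a, Usp51, Usp11, Usp45 and Usp24, which rose.

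**Figure D2:**
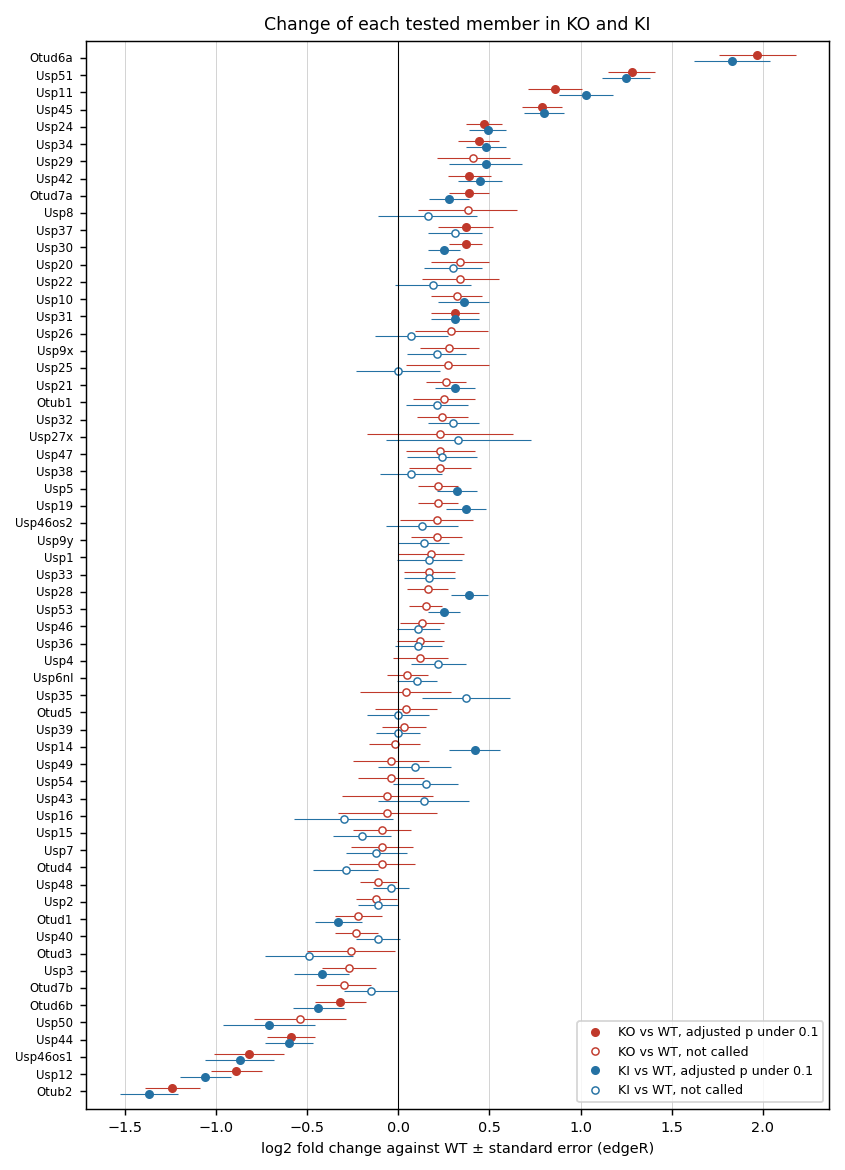
Log2 fold change of each tested member against WT, red for KO and blue for KI, with the standard error from edgeR. Filled points have an adjusted p under 0.1. Otub2 is lowest at -1.24 in KO and -1.37 in KI, and Otud6a is highest at 1.97 and 1.83.

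Among the members that fell, Otub2 stands on chr12:103388682-103406350 and encodes an Otu protease that cuts ubiquitin chains. Its levels in WT ran from 285 to 397 CPM, with a median of 358. In KO they ran from 90.0 to 183 CPM (median 156) and in KI from 107 to 154 CPM (median 148). All 12 KO and KI libraries lay below all WT libraries. The fold change was 2.37-fold lower in KO (log2 -1.24 ± 0.15 SE, edgeR's adjusted p = 3.51e-06) and 2.58-fold lower in KI (log2 -1.37 ± 0.16, adjusted p = 8.39e-07), and neither passed the test against 1 log2 unit (glmTreat, adjusted p = 1.0 and 0.435). In bulk libraries like these, fewer cells of a type and less RNA per cell cannot be told apart.

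Usp12 (chr5:146734809-146795006) encodes a protease that works only with the cofactor UAF1. It stood at 93.5 to 120 CPM in WT (median 113), 36.1 to 77.5 CPM in KO (median 60.7) and 44.1 to 57.9 CPM in KI (median 53.3). Every KO and KI library was below every WT library. Its level was 1.86-fold lower in KO (log2 -0.89 ± 0.14, edgeR's adjusted p = 7.56e-05) and 2.09-fold lower in KI (log2 -1.06 ± 0.14, adjusted p = 8.55e-06). Its partners in the same group, Usp1 and Usp46, were not called in either genotype, with log2 fold changes of 0.18 and 0.13 in KO and 0.17 and 0.11 in KI.

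Usp44 (chr10:93831555-93858088) was between 241 and 333 CPM in WT (median 285), between 158 and 215 CPM in KO (median 194) and between 149 and 225 CPM in KI (median 192). The KO and KI libraries again lay below those of WT, by a narrower margin than for Otub2. The log2 fold change was -0.59 ± 0.13 in KO (edgeR's adjusted p = 0.00139) and -0.60 ± 0.13 in KI (adjusted p = 0.00111).

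Usp46os1 (chr5:74014215-74029680, plus strand), a noncoding RNA, had 13.6 to 21.3 CPM in WT, 6.32 to 12.7 CPM in KO and 5.71 to 13.5 CPM in KI, with medians of 15.6, 9.498 and 8.51. The ranges did not overlap, and the highest KI value, just under the lowest WT value, was that of KI 4. It fell by 0.82 ± 0.19 in KO and by 0.87 ± 0.19 in KI on the log2 scale (edgeR's adjusted p = 0.00245 and 0.00129). The counted bases of this RNA overlap those of Usp46 on the other strand over 14.6% of its length, and the authors counted by strand. Usp46 itself, which lies around it, was at 20.2 ± 3.27 CPM in WT, 22.1 ± 1.72 CPM in KO and 21.7 ± 2.78 CPM in KI (SD, n = 6) and was not called.

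Otud6b (chr4:14809498-14826587), an Otu protease with a role in proteasome assembly, ran from 80.3 to 114 CPM in WT (median 99.2), from 56.8 to 107 CPM in KO (median 76.0) and from 61.9 to 78.3 CPM in KI (median 74.3). The KO range overlapped that of WT and the KI range did not. Its log2 fold change was -0.32 ± 0.14 in KO (edgeR's adjusted p = 0.0988) and -0.44 ± 0.14 in KI (adjusted p = 0.0203). The KO call held in 4 of the 18 fits that left out a library, and neither call held with close libraries summed. In KI, 3 more members fell: Otud1 (log2 -0.33), Usp3, which removes ubiquitin from histones H2A and H2B (-0.42), and Usp50 (-0.71), with adjusted p of 0.0768, 0.0432 and 0.0426 in edgeR's test and libraries that overlapped those of WT. All 3 calls were lost with close libraries summed, and that of Otud1 held in 10 of the 18 fits that left out a library. In KO the same members had log2 fold changes of -0.22, -0.27 and -0.54 and were not called.

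**Figure D3:**
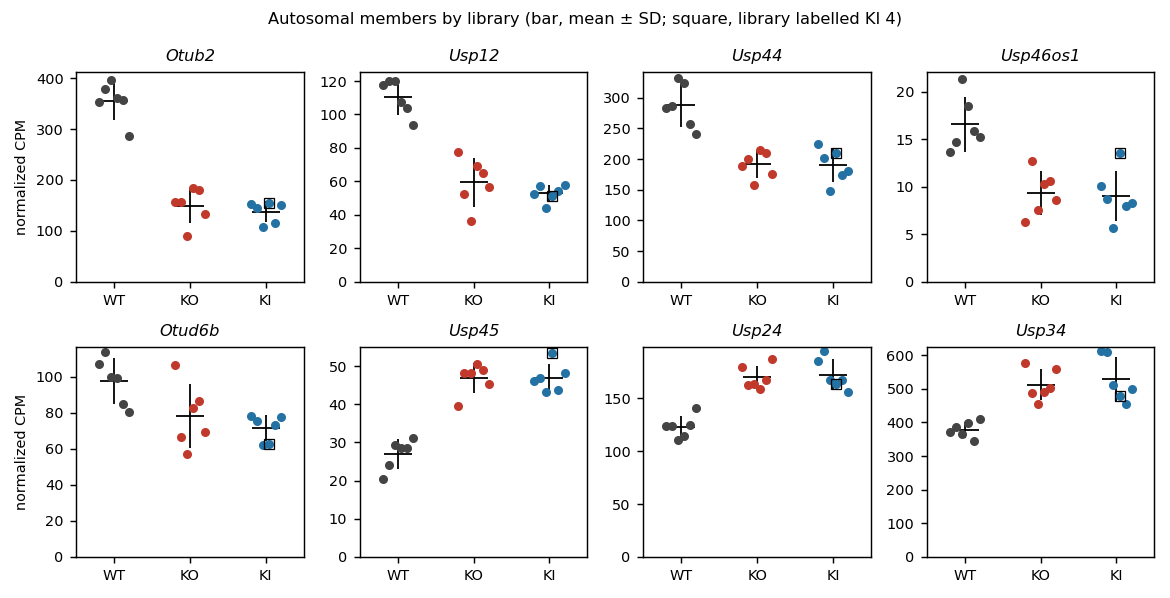
Normalized CPM of 8 autosomal members in every library, with points for the 6 libraries of each genotype, a bar at the mean and a line of ± SD. A square marks the library labelled KI 4. Otub2, Usp12, Usp44 and Usp46os1 are lower in all KO and KI libraries than in WT, Otud6b overlaps in KO, and Usp45, Usp24 and Usp34 are higher.

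These members fell in the same genotypes as the late spermatid markers, all 10 of which were lower past 1 log2 unit. None of the 10 was at the floor of 3 counts in every library. Their summed level was 15740 to 21730 CPM in WT, 1840 to 4670 CPM in KO and 2454 to 3767 CPM in KI. The KO library with the lowest sum, KO 3, also had the lowest Otub2 (90.0 CPM), Usp12 (36.1 CPM) and Usp44 (158 CPM) of the KO libraries, and KI 3, with the lowest sum in KI, had the lowest levels of the same members in KI, at 107, 44.1 and 149 CPM. In WT, WT 6 had both the lowest marker sum and the lowest level of Otub2, Usp12 and Usp44. Otud6b was lowest in the same libraries, while Usp46os1 was lowest in KI 3 but in KO 1 and WT 1 otherwise (6.32 and 13.6 CPM). Other libraries did not always keep the order. KI 4 had the highest sum in KI, 3767 CPM, with Usp12 above that of KI 3 only (51.0 CPM). In WT 4 the sum was above that of WT 6 only (17940 CPM) and Usp44 was below that of WT 3 only (324 CPM). The RS marker sum was lowest within each genotype in KO 3, KI 3 and WT 6 as well, at 1040, 1083 and 1519 CPM. The summed level of spermatocyte markers was highest within each genotype in these libraries, at 1584, 1700 and 1446 CPM. The part of late spermatids, of RS, of spermatocytes or of their RNA in these results was not tested.

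The 3 members with the largest rises lie on the X chromosome. Otud6a (chrX:100429013-100429885), an Otu protease whose coding transcript has 1 exon, had 2.89 to 6.32 CPM in WT (median 3.35), 11.2 to 21.4 CPM in KO (median 15.6) and 10.7 to 21.4 CPM in KI (median 13.6). No KO or KI library overlapped WT, and the highest values in KO and KI were those of KO 2 and KI 4, the closest pair of libraries. The rise was 3.91-fold in KO (log2 1.97 ± 0.21, edgeR's adjusted p = 3.80e-07, 0.00576 against 1 log2 unit with glmTreat) and 3.56-fold in KI (log2 1.83 ± 0.21, adjusted p = 8.55e-07, 0.0186 against 1 log2 unit). Without KI 4, the KI log2 fold change was 1.68.

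Usp51 (chrX:153006469-153009416), which removes ubiquitin from histone H2A and, with the adaptor Atxn7l3, from H2B, rose from 2.71 to 3.67 CPM in WT (median 3.16) to 6.41 to 8.83 CPM in KO (median 7.81) and 5.89 to 8.54 CPM in KI (median 7.82). All KO and KI libraries were above all WT libraries. The rise was 2.43-fold in KO (log2 1.28 ± 0.13, edgeR's adjusted p = 3.19e-07) and 2.38-fold in KI (log2 1.25 ± 0.13, adjusted p = 3.81e-07), and it did not pass the test against 1 log2 unit (glmTreat, adjusted p = 0.804 and 1.0).

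Usp11 (chrX:20703906-20720539), which acts on DNA repair proteins, had 4.78 to 5.64 CPM in WT (median 5.12), 8.53 to 10.9 CPM in KO (median 9.05) and 8.12 to 15.1 CPM in KI (median 9.17). The KO and KI libraries did not overlap those of WT. KI 1 and KI 2, a close pair with an index of 2.63, were above the other 4 KI libraries. The log2 fold change was 0.86 ± 0.15 in KO (edgeR's adjusted p = 0.000211) and 1.03 ± 0.15 in KI (adjusted p = 2.48e-05).

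The other 4 X-linked members were not called in either genotype. Usp9x, a large protease needed in male germ cells, was at 107 ± 17.6 CPM in WT, 130 ± 24.6 CPM in KO and 124 ± 27.7 CPM in KI (log2 0.28 and 0.21). Usp26, expressed in testis, was at 10.2 ± 2.38, 12.4 ± 2.05 and 10.7 ± 3.82 CPM (log2 0.29 and 0.07). Usp27x had at most 0.847 CPM in any library, and Otud5 was at 14.8 ± 3.28 in WT, 15.3 ± 1.20 in KO and 14.8 ± 4.03 in KI. Y-linked Usp9y, the counterpart of Usp9x, had 13.1 ± 2.26 CPM in WT, 15.1 ± 1.09 CPM in KO and 14.4 ± 3.02 CPM in KI and was not called (log2 0.21 and 0.14). X-linked members thus rose in 3 of 7 cases in both genotypes. Of all 710 X-linked genes tested, 29.7% rose in KO and 23.5% in KI, against 16.1% and 16.01% of autosomal genes, and of the 53 autosomal members 8 rose in KO and 15 in KI.

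**Figure D4:**
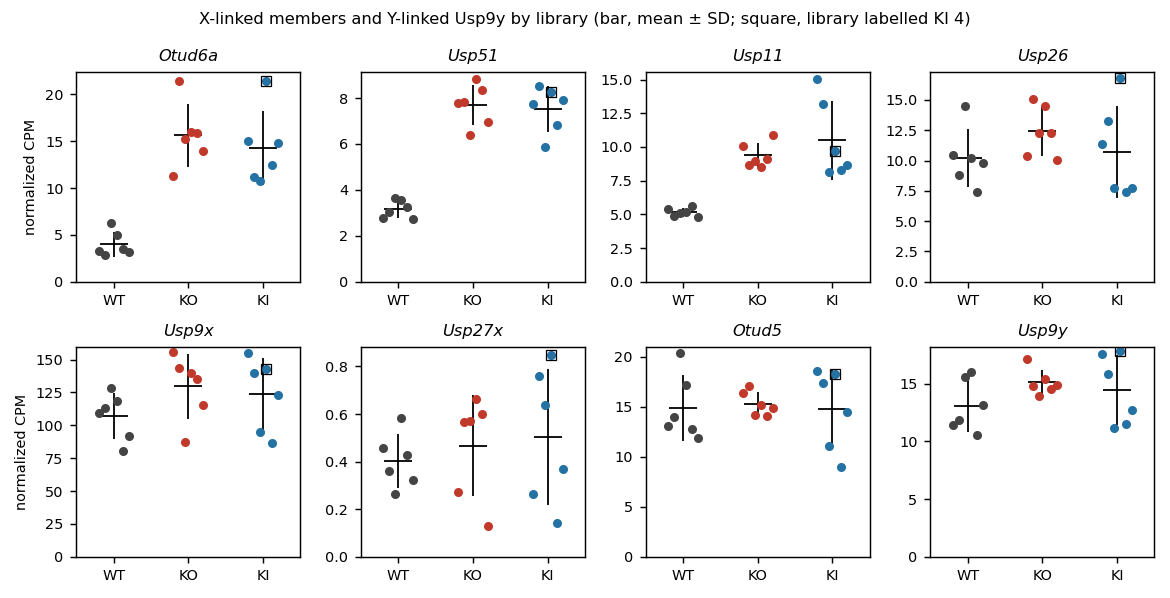
Normalized CPM of the 7 X-linked members and of Y-linked Usp9y in every library, with the mean and ± SD of 6 libraries per genotype and a square around the library labelled KI 4. Otud6a, Usp51 and Usp11 are higher in all KO and KI libraries than in any WT library, and the other 5 overlap WT.

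Leydig cell markers moved in the same direction as these X-linked members. All 7 were higher in KO and in KI, with none at the floor in every library, and their summed level was 9.96 to 20.6 CPM in WT, 30.7 to 54.6 CPM in KO and 13.6 to 69.3 CPM in KI. In KI 3, KI 5 and KI 6 the sum was 13.6 to 18.9 CPM. That lay below WT 6, at 20.6 CPM, and above every other WT library, at most 12.2 CPM. The spermatogonial markers of KI 3, KI 5 and KI 6 summed to 48.4 to 58.0 CPM, not above the WT range of 53.9 to 67.9 CPM. In those same libraries Otud6a was at 10.7 to 14.8 CPM, Usp51 at 5.89 to 7.92 CPM and Usp11 at 8.12 to 8.65 CPM, each above every WT library. KI 3 and KI 5 were a close pair, with an index of 2.68. Usp11 was higher in KI 1, KI 2 and KI 4, at 15.1, 13.2 and 9.69 CPM. Their Leydig sums were 48.7, 69.3 and 51.7 CPM. Otud6a and Usp51 did not keep this split, with KI 6 above KI 2 in Otud6a and above KI 1 in Usp51. In KO, the lowest Leydig sum and the highest Usp11 (10.9 CPM) were both those of KO 6. The spermatogonial sum was 67.1 to 110 CPM in KO and 48.4 to 114 CPM in KI, with 3 of its 9 tested markers called higher in KO and 1 in KI. The highest sums were those of KO 2 and KI 4, where Otud6a was also highest. Of 10 spermatocyte markers, 4 rose and 2 fell in KO and 3 rose and 1 fell in KI, with sums of 1020 to 1446 CPM in WT, 1247 to 1584 CPM in KO and 1111 to 1700 CPM in KI. KI 3 and KI 5 had the highest spermatocyte sums of all 18 libraries, at 1700 and 1677 CPM. The 7 markers of macrophages, endothelium and blood summed to 5.17 to 8.10 CPM in WT, 6.21 to 9.43 CPM in KO and 8.51 to 11.7 CPM in KI, with 1 of 6 tested called higher in KO and 2 in KI, and KI 3, KI 5 and KI 6 were above all WT libraries at 11.5, 8.51 and 10.2 CPM. The part of these cells in the X-linked results was not tested.

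**Figure D5:**
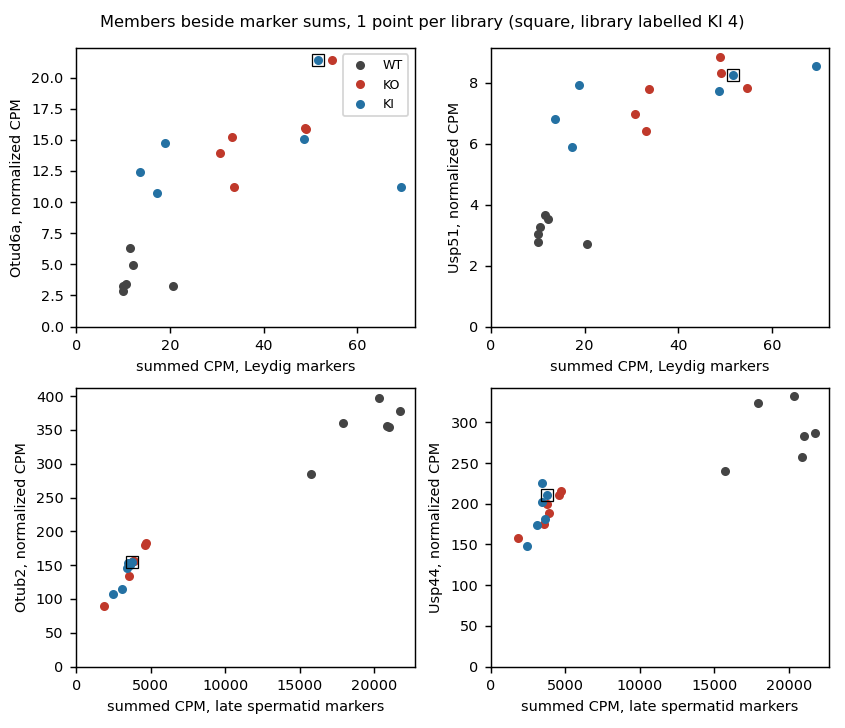
Level of 4 members against the summed normalized CPM of a marker list, 1 point per library, with Leydig markers for Otud6a and Usp51 and late spermatid markers for Otub2 and Usp44. A square marks the library labelled KI 4. KI 3, KI 5 and KI 6 have Leydig sums below WT 6 and above every other WT library. In Otud6a and Usp51 they lie above all WT libraries. WT stands apart from KO and KI on the late spermatid axis.

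On autosomes, the largest rise was that of Usp45 (chr4:21767156-21837872), a protease of DNA repair. It had 20.3 to 31.1 CPM in WT (median 28.6), 39.5 to 50.5 CPM in KO (median 48.2) and 43.3 to 53.4 CPM in KI (median 46.5), with no overlap between WT and either genotype. The log2 fold change was 0.79 ± 0.11 in KO (edgeR's adjusted p = 1.34e-05) and 0.80 ± 0.11 in KI (adjusted p = 1.10e-05).

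Usp24 (chr4:106316213-106441322), a large protease that acts on p53 pathway proteins, was at 110 to 141 CPM in WT (median 124), 159 to 187 CPM in KO (median 165) and 156 to 195 CPM in KI (median 168). The groups did not overlap, and the change was smaller than that of Usp45. It rose 1.38-fold in KO (log2 0.47 ± 0.10, edgeR's adjusted p = 0.00148) and 1.40-fold in KI (log2 0.49 ± 0.10, adjusted p = 0.00088).

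Usp34 (chr11:23306895-23490560), a large protease of Wnt signaling, was at 344 to 409 CPM in WT (median 378), 455 to 578 CPM in KO (median 497) and 456 to 612 CPM in KI (median 506), without overlap. It rose by a log2 fold change of 0.44 ± 0.11 in KO (edgeR's adjusted p = 0.00713) and 0.48 ± 0.11 in KI (adjusted p = 0.00305). Neither call held with close libraries summed, and the same was true of Usp42.

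Usp42 (chr5:143710325-143732280), which is expressed in spermatids and removes ubiquitin from histones, ran from 148 to 165 CPM in WT (median 162), from 184 to 243 CPM in KO (median 205) and from 181 to 267 CPM in KI (median 203), again without overlap. Its log2 fold change was 0.39 ± 0.12 in KO (edgeR's adjusted p = 0.0190) and 0.45 ± 0.12 in KI (adjusted p = 0.00672). Usp30, which sits on the outer membrane of mitochondria, Usp31 and Otud7a also rose in both, by log2 fold changes of 0.37, 0.31 and 0.39 in KO and 0.25, 0.31 and 0.28 in KI. Of these, the call of Usp30 in KO held with close libraries summed and the other calls did not.

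Grouped by role, the 11 proteases of histones and chromatin held members that moved in opposite directions. In KO, Usp42 and Usp51 rose and Usp44 fell, and in KI, Usp21 also rose (log2 0.31) and Usp3 also fell, both lost with close libraries summed. The medians were 0.12 in KO and 0.11 in KI. Of all genes tested, 16.4% rose and 13.5% fell in KO, and 16.1% and 15.4% in KI. Usp22, the main protease of the SAGA complex, was at 4.85 ± 0.743 CPM in WT, 6.11 ± 1.67 CPM in KO and 5.51 ± 1.72 CPM in KI and was not called, nor were Usp7, Usp16, Usp27x, Usp36 and Usp49. Of the counted length of Usp49, 51.2% is shared with a predicted gene on the same strand, so its level is uncertain.

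Of the 8 members linked to p53, DNA damage and the cell cycle, 3 rose in KO (Usp24, Usp37 and Usp45) and 5 in KI (Usp10, Usp24, Usp28, Usp29 and Usp45), with medians of 0.35 and 0.38, beside 16.4% and 16.1% of all genes that rose and medians of 0.03 and 0.05. The log2 fold change was positive for all 8 in both comparisons, as it was for 40 of the 61 members in KO and 43 in KI and for 11074 and 11643 of the 21058 genes. The group was not tested. Usp37 had log2 fold changes of 0.37 in KO and 0.31 in KI, Usp28 of 0.16 and 0.39, and Usp10 of 0.32 and 0.36. All of these calls but those of Usp24 and Usp45 were lost with close libraries summed.

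Among 8 members with a known role in spermatids or male fertility, Usp42 rose in KO, and Usp42 and Usp14 rose in KI. Of all genes tested, 16.4% rose and 13.5% fell in KO, and 16.1% and 15.4% in KI. Usp14 trims ubiquitin chains on the proteasome and lies on chromosome 18. It had 12.9 to 21.7 CPM in WT (median 16.6), 15.6 to 19.8 CPM in KO (median 16.5) and 19.2 to 30.7 CPM in KI (median 21.99). The WT range overlapped both others, and its log2 fold change was -0.02 ± 0.14 in KO (edgeR's adjusted p = 0.957) and 0.42 ± 0.14 in KI (adjusted p = 0.0305, lost with close libraries summed). Usp1, Usp2, Usp8, Usp9x, Usp9y and Usp26 were not called in either genotype. Usp1 was at 619 ± 43.6 CPM in WT, 703 ± 155 CPM in KO and 695 ± 207 CPM in KI, and Usp2 at 487 ± 32.9, 447 ± 39.1 and 450 ± 56.4 CPM (log2 -0.12 and -0.11). Usp8 ran from 189 to 471 CPM in WT, 227 to 765 CPM in KO and 245 to 514 CPM in KI (log2 0.38 ± 0.27 and 0.16 ± 0.27).

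In the remaining groups, the 8 proteases listed for DUSP or ubiquitin-like domains gave Usp11 in KO and Usp11 and Usp19 in KI, all higher. Usp19, which is anchored in the endoplasmic reticulum, stood at 168 ± 17.8 CPM in WT, 196 ± 25.9 CPM in KO and 218 ± 18.9 CPM in KI, without overlap between WT and KI (log2 0.37, edgeR's adjusted p = 0.0205). With close libraries summed, this call and the KI calls of Usp5, Usp50 and Usp53 were lost. Usp5, which takes apart free ubiquitin chains, rose in KI by a log2 fold change of 0.32 and had 0.22 in KO, where it was not called. Of the 4 tested members described as lacking protease activity, Usp53 rose and Usp50 fell in KI, by 0.25 and 0.71 on the log2 scale, and none was called in KO. The 10 Otu members gave 2 higher and 2 lower in KO and 2 higher and 3 lower in KI, with negative medians of -0.15 and -0.22. For all groups of this paragraph the background was 16.4% of genes higher and 13.5% lower in KO, and 16.1% and 15.4% in KI.

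KI and KO were also compared with each other. By edgeR's quasi-likelihood test, 0 of the 61 members were called for a change of any amount and 0 past 1 log2 unit, where 0.0997% and 0.00475% of all genes were called. At an unadjusted p under 0.05 there were 2 members, and DESeq2 also called 0, with 2 at that unadjusted p. The log2 fold changes of KI against KO ran from -0.26 for Usp25 to 0.44 for Usp14, with a median size of 0.10, and the lowest adjusted p was 0.634, for Usp14. Without KI 4, when 0.522% of all genes were called, 0 members were, with 3 at an unadjusted p under 0.05 and 0.257 as the lowest adjusted p, again for Usp14. The members called in KI and not in KO were therefore not shown to differ between the genotypes.

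Promoters were searched for the cyclic AMP response element, the site of CREM, a transcription factor of RS, in windows from 250 bases before to 50 bases after the start site (RefSeq, GRCm38.p6, both strands). The full element, TGACGTCA, was in 1.79% of all 32851 windows and in those of 2 members, Otud7a and Usp29. Its core, TGACG, which the full element contains, was in 20.8% of all windows and in 37.5% of the 56 windows of the 52 members that had one. Usp44 and Usp46os1 had no window. Among the members with the most stable changes, Otub2 held a pair of cores, at -49 and -10 from a start site. A window of Otub2 at another start site held none, and the pair was counted in overlapping windows at adjacent start sites. Usp11 held 1 core at -79, while Usp12, Otud6a, Usp51, Usp45 and Usp24 held none. The 100 bases before the start site of Otub2 (chr12:103388581-103388680, plus strand) and of Usp11 (chrX:20703809-20703908, plus strand) are shown because 1 fell and the other rose, with the cores in capitals, read on the opposite strand as CGTCA.
Otub2: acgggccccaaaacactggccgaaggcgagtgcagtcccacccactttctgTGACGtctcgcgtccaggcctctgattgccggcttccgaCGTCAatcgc
Usp11: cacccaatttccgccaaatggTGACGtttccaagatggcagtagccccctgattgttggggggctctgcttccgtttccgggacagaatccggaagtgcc
A core was thus present in a member that fell and in one that rose. Such a match is a description of the letters only. Crem RNA was at 376 ± 57.3 CPM in WT, 248 ± 25.3 CPM in KO and 227 ± 36.9 CPM in KI. All KO and KI libraries lay below WT, with log2 fold changes of -0.60 and -0.73. The part of CREM in these results was not tested.

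Outside the symbol rule, 33 other deubiquitinases were tested. In KO, 1 of them rose and 3 fell, and in KI, 5 rose and 4 fell, with medians of 0.03 and 0.06. Of all genes, 16.4% rose and 13.5% fell in KO and 16.1% and 15.4% in KI. With close libraries summed, 0 rose and 1 fell in each genotype, Yod1, and the other calls were lost. Yod1, an Otu protease that works with the segregase p97, fell from 56.9 ± 7.81 CPM in WT to 31.5 ± 4.22 CPM in KO and 32.8 ± 2.20 CPM in KI, without overlap (log2 -0.85 and -0.79, edgeR's adjusted p = 7.22e-06 and 1.53e-05). Atxn3, the polyglutamine disease protease, fell by 0.44 and 0.55 on the log2 scale, and Mindy3 by 0.49 and 0.50. Cyld, an inhibitor of NF-kB signaling, rose by 0.42 in KO and 0.30 in KI. Vcpip1 and Mindy4 rose in KI, each by 0.31, as did Tnfaip3 by 0.51, and in KO these were not called, at 0.24, 0.13 and 0.43.

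Of 14 genes listed as partners of these proteases or as related to them, 3 rose and 1 fell in both genotypes. Of all genes tested, 16.4% rose and 13.5% fell in KO, and 16.1% and 15.4% in KI. Dcun1d1, on this list, promotes the attachment of the ubiquitin-like NEDD8, and no protease is named here as its partner. It stood at 448 ± 49.6 CPM in WT, 140 ± 38.1 CPM in KO and 124 ± 14.9 CPM in KI. All KO and KI libraries were below WT, and the fall passed 1 log2 unit in both (log2 -1.68 ± 0.16 and -1.85 ± 0.16, edgeR's glmTreat, adjusted p = 0.0148 and 0.00142). With close libraries summed, it passed 1 log2 unit in KI and not in KO (adjusted p = 0.0914 and 0.117). Atxn7l3, the adaptor of Usp22, Usp27x and Usp51, rose from 17.2 ± 0.825 CPM in WT to 28.1 ± 2.94 CPM in KO and 29.6 ± 3.28 CPM in KI (log2 0.71 and 0.79), without overlap. G3bp1, the partner of Usp10, rose by 0.25 in both, and Sf3b3, a subunit of SAGA, by 0.29 and 0.38, and the calls of both were lost with close libraries summed while that of Atxn7l3 held.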

How the data were processed

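RNA was sequenced from round spermatids of WT, KO and KI mice, 6 libraries each, grouped by their labels. The authors used cutadapt 3.4 for trimming and STAR 2.7.8a for alignment to GRCm38, and counted fragments by strand on GENCODE M18 genes with featureCounts of Subread 2.0.1. The deposited table holds raw counts for 54232 genes, and 0 columns were left without a library. Symbols and positions came from GENCODE M21, which named 54079 identifiers.

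Genes were filtered with filterByExpr, scaled with TMM and fitted in 1 quasi-likelihood model of genotype (R 4.3.3, edgeR 4.0.16). Changes of any amount (glmQLFTest) and past 1 log2 unit (glmTreat) were called at a Benjamini-Hochberg adjusted p under 0.1 over all 21058 genes, and the script was tested on simulated data. Depth was 18766971 to 26776555 counts per library. A level of 3 counts or fewer was taken as the floor, and such limits cover counting error only, since PCR reads without molecular identifiers are not independent molecules. Figures used matplotlib 3.10.9.

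Members and lists were chosen with earlier results of these data known. Full values were given by rule for members past 1 log2 unit or called in KI against KO, the 6 largest rises and 6 largest falls without overlap in each comparison with WT, the 5 highest levels per kb in WT and the fertility list, and for the 3 largest rises and 3 largest falls of each other list. Members outside that rule were named after their values were seen. Active sites were searched in translated GENCODE M21 coding sequences, not in RefSeq proteins. Alternatives were DESeq2 1.42.0 and its size factors, other filters on low counts, only the genotypes compared, a replicate block, an adjusted p under 0.05, close libraries (pair index under 4) summed, and each library left out. Same-numbered libraries of different genotypes had correlations of their deviations between -0.501 and 0.538, so the numbers were not taken to pair them. Some genes of the lists are not reported here.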

Additional observations from a re-analysis of the deposited data

Results flagged for a closer look

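The 61 tested members were searched in WT, in KO and in KI. Among them, 8 library values stood apart from the other 5 of their genotype by more than the 95% limit of Dixon's test. Chance exceeds that limit in about 1 of 20 groups, so about as many values would be flagged by chance alone. None is read as a result. KO 1 was high in Otud7a (24.6 CPM) and in Usp16 (269 CPM). KO 2 was high in Usp46 (25.6 CPM). WT 6 was high in Usp28 (26.3 CPM) and in Usp5 (44.7 CPM). KI 3 was high in Usp5 (53.3 CPM) and in Usp10 (11.3 CPM). The library labelled KI 4 was low in Usp6nl (26.9 CPM). Of these, the call of Usp10 in KI was lost without KI 3, and that of Otud7a in KO held without KO 1.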

How the results depend on the processing

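Single fold changes were refitted only for the members whose full values were given by rule. Across the alternatives, 985 of these kept their direction and their side of the threshold, 32 lost a call, 1 gained one and 8, of Usp14 and Usp26, changed sign. Some calls outside that set were less stable. That of Usp31 in KO held in 10 of the 18 fits that left out a library and in 2 of the 8 other settings. For Usp29 in KI these were 8 of 18 and 3 of 8. With close libraries summed, members gave 6 higher in KO, 5 higher and 4 lower in KI, and 0 past 1 log2 unit in KI, and with KI 4 also left out (chosen after seeing the data) 5, 5, 4 and 0. Without a filter on low counts, 11 members were higher in KI. Other deubiquitinases gave 2 higher in KO with at least 10 counts in every library, 5 lower in KO with only the genotypes compared, 0 higher in KI without a filter, 1 higher in KI at an adjusted p under 0.05, and 0 higher and 1 lower in KO and 0 higher and 1 lower in KI with close libraries summed. Partners gave 1 higher in KO without a filter, 1 higher in KO and 1 in KI with close libraries summed, and 2 lower in KO with DESeq2. With the replicate block, members gave 11 higher and 6 lower in KO and 15 higher and 9 lower in KI, other deubiquitinases 3 higher in KI, and Usp14 a log2 fold change of 0.01 in KO. The labels do not say what a shared number means, and only 1 or 2 of the 6 libraries of a genotype correlated best with their own number.

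Leaving out each library in turn gave 9 to 13 members higher and 4 to 8 lower in KO (8 without KO 1, which added Otud3, Otud7b and Usp50), 14 to 19 higher and 6 to 9 lower in KI, 0 in KI against KO, and 1 past 1 log2 unit in each. Other deubiquitinases ranged from 1 to 2 higher (2 without WT 4, KO 1, KO 5 or KO 6) and 2 to 4 lower in KO, and from 0 to 5 higher (0 without WT 2, 1 without WT 1 or KI 1, 2 without WT 4, WT 5 or KI 2, 3 without KO 4, KO 5, KI 4 or KI 5) and 3 to 4 lower in KI. Partners ranged from 1 (without WT 3) to 3 higher in KO, 2 to 3 higher in KI and stayed at 1 lower. The uncalled log2 fold change of Usp14 in KO, -0.02, ranged from -0.09 to 0.06 when libraries were left out (0.05 without WT 5, 0.06 without WT 6, 0.00 without KO 3, 0.01 without KO 6). That of Usp26 in KI, 0.07, ranged from -0.10 to 0.25 (-0.01 without WT 5, -0.10 without KI 4) and was -0.10 without KI 4 and with close libraries summed. The cause was not tested. Depth limits the 7 untested members and Usp27x most.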
